A study of Homo sapiens with 6 samples.

Results

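The proteasome subunit genes were followed after knockdown of GSE1 in A549 cells, an established line grown from a human lung adenocarcinoma. The deposited table of 60612 genes holds 41 rows whose symbol is PSMA, PSMB, PSMC, PSMD or PSME followed by a number, once PSMB8 and PSMB9 are left out. Of these, 17 encode the core particle (PSMA and PSMB), 20 the regulatory particle or its chaperones (PSMC and PSMD) and 4 the alternative activators (PSME). Total RNA was sequenced 48 hours after transfection from 3 libraries of cells given a small interfering RNA (siRNA) against GSE1, written siGSE1, and from 3 libraries of cells given a negative control siRNA. All 6 libraries come from this 1 line, both groups were transfected, and no source used here gives the siRNA sequences. The labels do not say whether the replicates were separate cultures, so the p-values rest on a spread between libraries that may be technical.

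The proteasome degrades proteins that carry ubiquitin chains. Its barrel-shaped core particle has rings of alpha subunits, which gate the entry, around rings of beta subunits, some of which carry the proteolytic sites. The regulatory particle caps the barrel. Its base holds a ring of ATPases that unfold substrates, and its lid removes the ubiquitin chains. Subunit genes are known to be induced together by the transcription factor NRF1 (gene NFE2L1) when proteasome capacity is low. They are also induced in part by NRF2 (gene NFE2L2), and both factors act through antioxidant response elements.

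The targeted gene checked the labels. GSE1 had 7.37, 8.06 and 7.92 FPKM (counts scaled by the exonic length of the gene and the size of the library) in control replicates 1, 2 and 3 and 3.84, 4.06 and 3.73 in siGSE1 replicates 1, 2 and 3. The libraries held 14475992 to 20755506 counts. Control replicate 2 stood apart from its group over all genes, with a chi-square per degree of freedom of 10.1 and 8.97 against the other control libraries, whose own value was 4.60. The simple epithelial keratin genes KRT8 and KRT18 were abundant, at 754 ± 101 and 902 ± 135 FPKM in control cells (SD, n = 3), while the epithelial adhesion gene EPCAM had 0.957 FPKM and 3 of 4 alveolar genes, SFTPC, SFTPB and NKX2-1, were near 0. The other alveolar gene, AGER, had 1.10, 0.65 and 0.80 FPKM in control and 1.71, 1.27 and 1.23 in siGSE1 libraries, with every siGSE1 library above every control library, and did not pass (log2 fold change 0.68, edgeR adjusted p 0.0930). KRT8 and KRT18 were lower in siGSE1 cells, with log2 fold changes of -0.26 and -0.25. Control replicate 2 was the highest library for both, at 863 and 1053 FPKM. In control replicate 1 they had 734 and 860 FPKM and in control replicate 3 664 and 792. The other epithelial markers, KRT19, CDH1 and EPCAM, had -0.08, -0.11 and -0.52 and did not pass (edgeR adjusted p 0.460, 0.299 and 0.238). The summed epithelial markers ran from 1565 to 2051 FPKM in the control and from 1514 to 1545 in the siGSE1 libraries. The part of these genes in the results was not tested. All 4 leukocyte and all 3 endothelial markers examined were under 1 FPKM in both groups, as were 4 of 5 fibroblast markers. The summed level of the leukocyte markers ran from 0.16 to 0.32 FPKM in the control libraries and from 0.06 to 0.29 in the siGSE1 libraries.

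Proteasome genes that changed were slightly lower in siGSE1 cells, and none was called higher. Of 39 members with enough counts to be tested, 11 fell, 0 rose and 28 did not pass the threshold (edgeR quasi-likelihood test, Benjamini-Hochberg adjusted p of at most 0.05 over 15937 genes). Over all genes tested, 19.9% were called, 9.02% lower (1437 genes) and 10.9% higher (1730 genes). On the log2(TPM + 1) scale that split was 702 lower and 1884 higher. At an unadjusted p under 0.05, 18 members were lower and 0 higher, where 15.5% of all genes were lower and 17.0% higher, and DESeq2 called 11 members lower and 0 higher. The log2 fold change of siGSE1 against control, also written log2 ratio, was below 0 for 33 of the 39, beside 49.4% of all genes. Its median was -0.13, a level 8.46% lower, beside 0.0044 for all genes. The values ran from -0.28 for PSMC1 to 0.06 for PSMD2. In bulk RNA, a lower level in every cell and a lower share of cells with the transcript cannot be told apart.

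**Figure D1:**
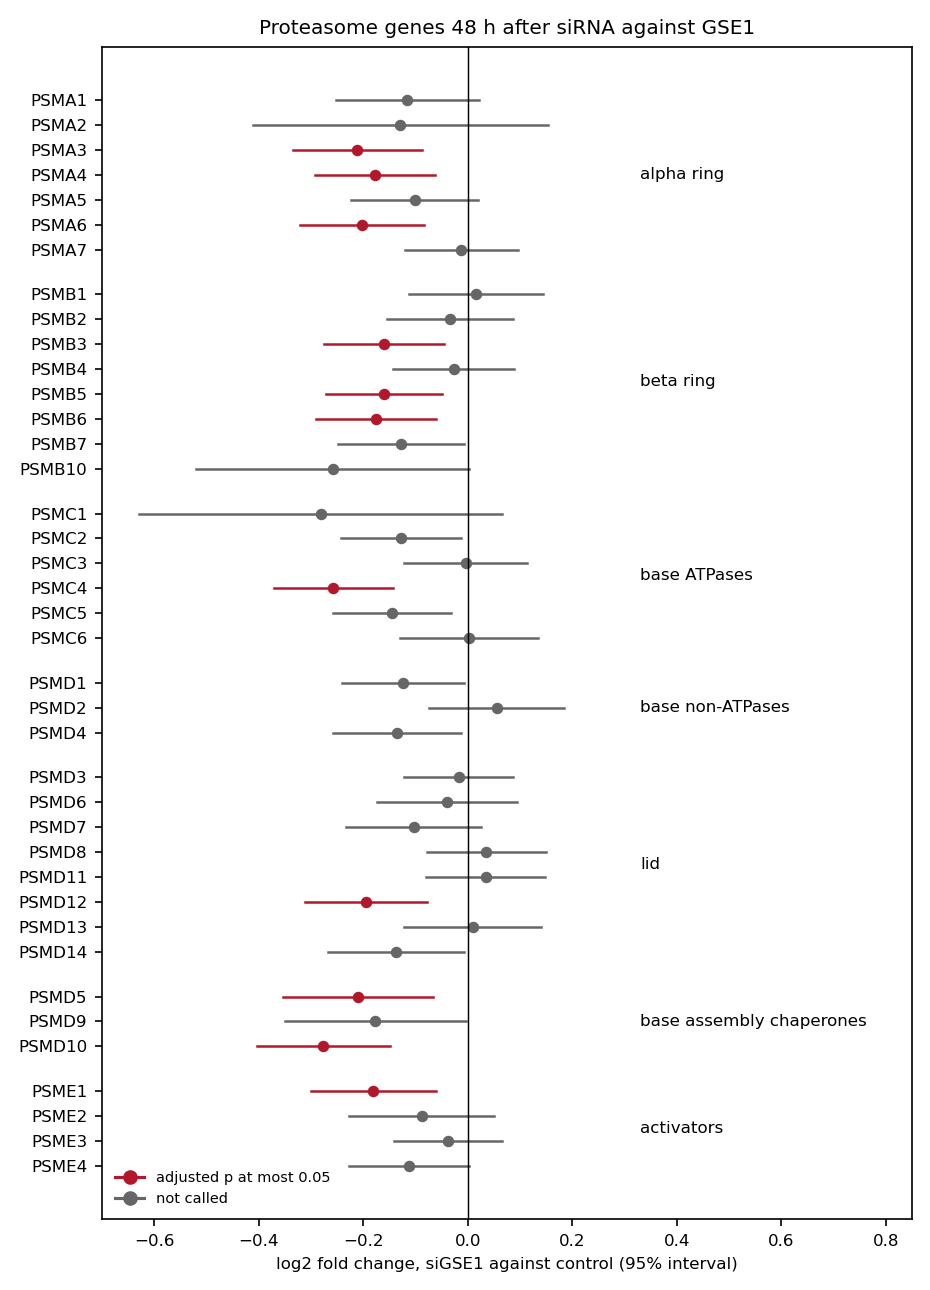
Log2 fold change of siGSE1 against control (horizontal axis) for the 39 tested proteasome genes, grouped by role, with bars for the 95% interval of the edgeR fit. The 11 genes in red passed the threshold and all lie left of 0, between -0.16 and -0.28, while no gene passed on the right.

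The size of the difference was close to the spread within the control group. Relative to the control mean, the median of the 15 tested core particle genes was 0.08, -0.02 and -0.05 on a log2 scale of counts scaled to library size in control replicates 1, 2 and 3. It was -0.11, -0.13 and -0.14 in siGSE1 replicates 1, 2 and 3. For the 20 regulatory particle genes the medians were 0.07, -0.01 and -0.06 in control and -0.08, -0.11 and -0.13 in siGSE1 libraries. Every siGSE1 library thus lay below every control library in both particles, and control replicate 1 was the highest. The regulatory particle medians of control replicate 3 and siGSE1 replicate 1 were the nearest to each other. The medians of all genes stayed between 0.0011 and 0.011 in the 6 libraries.

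**Figure D2:**
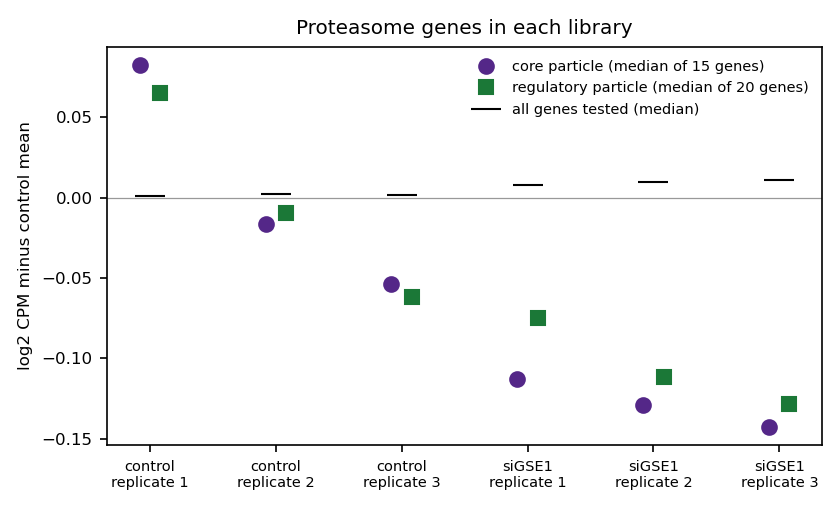
Median log2 CPM of the core particle genes (circles) and regulatory particle genes (squares) in each library, minus the control mean of each gene. Black dashes give the median of all genes tested. Medians of both particles are lower in the 3 siGSE1 libraries, at -0.08 to -0.14, than in the 3 control libraries, at 0.08 to -0.06.

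The number of calls depended on single libraries. Without control replicate 1, 0 core and 2 regulatory particle genes were called lower, and without siGSE1 replicate 3 again 0 and 2. Without siGSE1 replicate 1 the numbers were 1 and 3, and without siGSE1 replicate 2 they were 2 and 2. Without control replicate 2, the library that stood apart, they were 6 and 5, and without control replicate 3 they were 6 and 6. Over all genes, the share called lower was 9.02% with all libraries. It was 7.28%, 10.1% and 8.65% without control replicates 1, 2 and 3. Without siGSE1 replicates 1, 2 and 3 it was 5.90%, 5.49% and 4.99%. Whether the loss of calls was particular to the proteasome genes was not tested. PSMC4 and PSMD10 were called lower in all 17 alternative analyses, and each of the other 9 lost its call in at least 4 of them.

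In the core particle, 6 of 15 tested genes fell, 0 rose and 9 did not pass, beside 9.02% called lower over all genes. At an unadjusted p under 0.05, 7 were lower and 0 higher, beside 15.5% of all genes lower, and DESeq2 called 6 and 0. The median log2 fold change was -0.13. In 8 of the 15, every siGSE1 library had a lower FPKM than every control library, where 14.9% of all genes tested had such an order. Summed over the core particle, the deposited FPKM were 946 ± 36.7 in control and 893 ± 5.61 in siGSE1 libraries (SD, n = 3 each), which is 5.62% lower.

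In the alpha ring, 3 of 7 tested genes fell, 0 rose and 4 did not pass, beside 9.02% called lower over all genes. PSMA3 (hg38, as for all positions given here, chromosome 14, 58244843 to 58272012) had 32.6, 31.3 and 29.6 FPKM in control replicates 1, 2 and 3 and 28.1, 27.2 and 27.0 in the siGSE1 replicates (log2 ratio -0.21 ± 0.06 SE, edgeR adjusted p 0.0176). PSMA6 (chromosome 14, 35278633 to 35317493) had 14.6, 14.6 and 14.04 FPKM in control and 12.3, 13.3 and 12.6 in siGSE1 libraries (log2 ratio -0.20 ± 0.06 SE, adjusted p 0.0180). PSMA4 (chromosome 15, 78540405 to 78552417) had 26.7, 26.1 and 26.2 FPKM in control and 23.3, 25.2 and 22.6 in siGSE1 libraries (log2 ratio -0.18 ± 0.05 SE, adjusted p 0.0296). In each of these genes all 3 siGSE1 libraries were below all 3 control libraries, and in PSMA4 siGSE1 replicate 2 came nearest to the control libraries. The genes were called on these same libraries, so this order is not a separate check. PSMA3 kept its call in 13 of the 17 alternatives, PSMA6 in 11 and PSMA4 in 10. PSMA7, the most abundant subunit gene, had 160.2 ± 5.40 and 161.5 ± 3.87 FPKM in control and siGSE1 cells (SD, n = 3 each), and its log2 fold change had a 95% interval of -0.12 to 0.10. PSMA1 and PSMA5 had log2 fold changes of -0.12 and -0.10, with intervals that reached 0.02 and 0.02, and did not pass. PSMA2, with 188 to 286 counts per library, had -0.13 with an interval of -0.41 to 0.15. PSMA8, a subunit known from the testis, was at 0 FPKM in all 6 libraries.

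In the beta ring, 3 of 8 tested genes fell, 0 rose and 5 did not pass, beside 9.02% called lower over all genes. Proteolytic sites lie in the products of PSMB5 (chymotrypsin-like activity), PSMB6 (caspase-like) and PSMB7 (trypsin-like). PSMB5 (chromosome 14, 23016543 to 23035230), whose product is the main target of the drug bortezomib, had 144.9, 134.8 and 139.8 FPKM in control replicates 1, 2 and 3 and 126.6, 125.3 and 129.9 in the siGSE1 replicates. The log2 ratio was -0.16 ± 0.05 (SE; edgeR adjusted p 0.0400). PSMB6 (chromosome 17, 4796144 to 4798502) had 117.6, 110.6 and 109.6 FPKM in control and 98.6, 102.2 and 103.5 in siGSE1 libraries (log2 ratio -0.18 ± 0.05 SE, adjusted p 0.0308). PSMB7 had 96.8, 88.7 and 86.9 FPKM in control and 85.1, 84.8 and 84.0 in siGSE1 libraries, a log2 fold change of -0.13 (SE 0.06), and did not pass (adjusted p = 0.130). In these 3 genes no siGSE1 library reached a control library, and the highest library was control replicate 1. For PSMB5 and PSMB6, which were called on these same libraries, this order is not a separate check.

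Of the beta subunits without a proteolytic site, PSMB3 (chromosome 17, 38752741 to 38764225) had 161.1, 146.7 and 152.0 FPKM in control and 140.0, 138.8 and 139.7 in siGSE1 libraries. The log2 ratio was -0.16 ± 0.05 (SE; edgeR adjusted p 0.0470), close to the threshold, and it kept its call in 6 of the 17 alternatives. PSMB5 kept its call in 7 of them and PSMB6 in 10. PSMB1, PSMB2 and PSMB4 lay nearer to 0, at 0.02, -0.03 and -0.03, with intervals within -0.16 and 0.14. PSMB10, the subunit that replaces PSMB7 in the immunoproteasome, was low, with 5.81, 6.55 and 6.29 FPKM in control and 5.16, 5.12 and 5.56 in siGSE1 libraries. Its log2 fold change of -0.26 had an interval of -0.52 to 0.0019 and did not pass. The other immunoproteasome genes, PSMB8 and PSMB9, are not members and had 5.23 ± 0.54 and 2.71 ± 0.14 FPKM in control cells and 4.49 ± 0.57 and 2.79 ± 0.10 in siGSE1 cells (SD, n = 3 each). Neither passed, and DESeq2 called 0. At an unadjusted p under 0.05, 1 was lower and 0 higher, beside 15.5% of all genes lower. PSMB11, a subunit known from the thymus, had at most 0.03 FPKM.

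**Figure D3:**
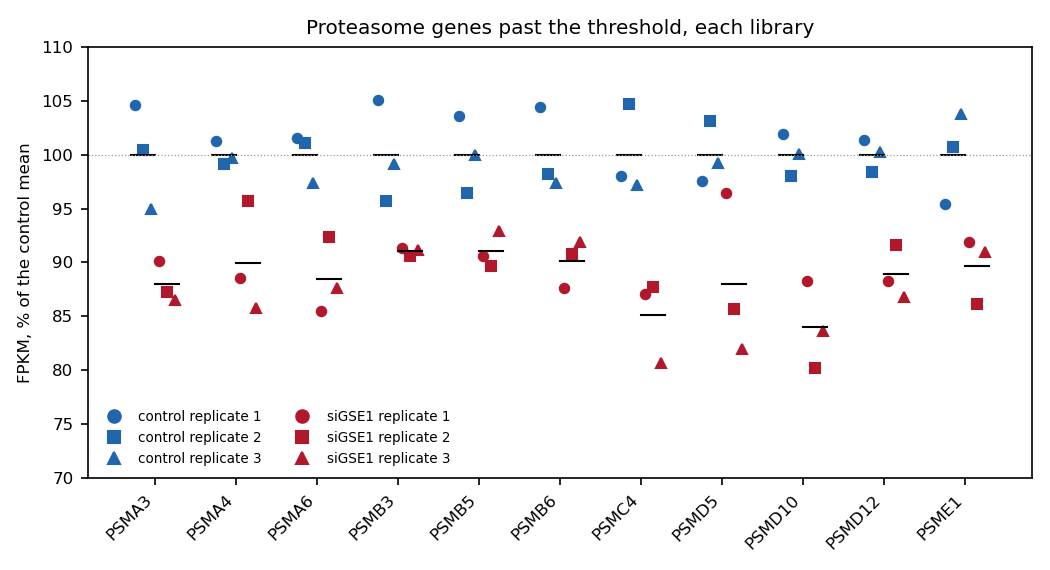
FPKM of the 11 proteasome genes that fell, in each library, as a percentage of the gene's control mean (vertical axis, which does not start at 0). Blue marks are control and red marks siGSE1 libraries, the marker shape gives the replicate number, and black bars give the group means. In all 11 genes the red marks lie below the blue ones. The genes were chosen by a test on these same libraries, so this order is not a separate check. It was found in 14.9% of all genes tested.

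In the regulatory particle, 4 of 20 tested genes fell, 0 rose and 16 did not pass, beside 9.02% called lower over all genes. At an unadjusted p under 0.05, 10 were lower and 0 higher, beside the same 15.5% of all genes, and DESeq2 called 4 and 0. The median log2 fold change was -0.13, and in 8 of the 20 the groups did not overlap, each time with siGSE1 below, an order found in 14.9% of all genes. The summed FPKM were 798 ± 24.0 in control and 762 ± 10.5 in siGSE1 libraries (SD, n = 3 each), 4.54% lower.

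In the ring of ATPases, 1 of 6 genes fell, 0 rose and 5 did not pass, beside 9.02% called lower over all genes. PSMC4 (chromosome 19, 39971165 to 39981764) had 144.3, 154.2 and 143.1 FPKM in control replicates 1, 2 and 3 and 128.1, 129.2 and 118.7 in the siGSE1 replicates. The log2 ratio was -0.26 ± 0.05 (SE; edgeR adjusted p 0.00288), a level 16.3% lower, and no siGSE1 library reached a control library. That order is not a separate check of the call, which rests on the same libraries. PSMC5 had 51.3, 49.1 and 47.0 FPKM in control and 45.8, 45.4 and 44.6 in siGSE1 libraries, a log2 fold change of -0.15 (SE 0.05). It did not pass (adjusted p = 0.0686) although the groups did not overlap, and it passed in 4 of the 17 alternatives. PSMC2 had -0.13 (adjusted p = 0.111), while PSMC3 and PSMC6 had -0.0042 and 0.0021 with intervals within -0.13 and 0.13. PSMC1 had the lowest log2 fold change of all members, -0.28, but an interval of -0.63 to 0.07.

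Of the 3 chaperones that assemble the base, 2 fell, 0 rose and 1 did not pass, beside 9.02% called lower over all genes. PSMD10 encodes gankyrin, the chaperone known to bind PSMC4 during assembly. PSMD10 (chromosome X, 108084207 to 108091549) had 32.7, 31.5 and 32.1 FPKM in control and 28.3, 25.7 and 26.8 in siGSE1 libraries (log2 ratio -0.28 ± 0.06 SE, edgeR adjusted p 0.00386). That is a level 17.4% lower, and it was called lower in all 17 alternatives, as was PSMC4. PSMD5 (chromosome 9, 120815496 to 120842951) had 14.96, 15.8 and 15.2 FPKM in control and 14.8, 13.1 and 12.6 in siGSE1 libraries (log2 ratio -0.21 ± 0.07 SE, adjusted p 0.0378). The gap between the groups was narrow in PSMD5, at siGSE1 replicate 1, and its call held in 10 of the 17 alternatives. PSMD9 had -0.18 and an adjusted p of 0.144.

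None of the 3 other base subunits passed the edgeR test. At an unadjusted p under 0.05, 2 were lower and 0 higher, beside 15.5% of all genes lower, and DESeq2 called 0. The scaffold gene PSMD1 and the ubiquitin receptor gene PSMD4 had log2 fold changes of -0.12 and -0.14 (edgeR adjusted p = 0.127 and 0.113), with no overlap between groups. PSMD2, the scaffold that receives shuttle proteins, had 83.6, 72.4 and 73.2 FPKM in control and 82.0, 78.4 and 82.1 in siGSE1 libraries. Control replicate 1 was the highest of the 6 and the other control libraries the lowest, and the log2 fold change was 0.06 with an interval of -0.07 to 0.18.

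In the lid, 1 of 8 genes fell, 0 rose and 7 did not pass, beside 9.02% called lower over all genes. The median log2 fold change in the lid was -0.029. PSMD12 (chromosome 17, 67337916 to 67366605), a structural subunit, had 16.3, 15.9 and 16.2 FPKM in control and 14.2, 14.8 and 13.99 in siGSE1 libraries (log2 ratio -0.19 ± 0.05 SE, edgeR adjusted p 0.0197). It kept its call in 12 of the 17 alternatives. PSMD14, the lid enzyme that cuts off ubiquitin chains, had -0.14 (adjusted p = 0.130), and its inactive partner PSMD7 had -0.10. PSMD3, PSMD6, PSMD8, PSMD11 and PSMD13 lay between -0.04 and 0.04, with intervals that together ran from -0.17 to 0.15.

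Of the 4 activator genes, 1 fell, 0 rose and 3 did not pass, beside 9.02% called lower over all genes. PSME1 and PSME2 encode the alternating subunits of PA28, a cap that opens the core without ATP. PSME1 (chromosome 14, 24136163 to 24138967) had 48.7, 51.4 and 52.9 FPKM in control and 46.9, 43.9 and 46.4 in siGSE1 libraries (log2 ratio -0.18 ± 0.06 SE, edgeR adjusted p 0.0334). Here control replicate 1 was the lowest of its group, and the call held without that library and in 7 of the 17 alternatives. PSME2 had -0.09 (adjusted p = 0.386), the nuclear activator gene PSME3 -0.04 (adjusted p = 0.644) and PSME4 -0.11 (adjusted p = 0.164).

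Promoters were read for letters known from the control of these genes. RefSeq windows of 250 bases before to 50 bases after a transcript start (GRCh38.p14) were found for 36 of the 41 members, 42 windows in all. The core of the antioxidant response element, TGACNNNGC on either strand, occurred in 12 of the 42 windows, 28.6%, and in 13.3% of all 35116 windows. By particle it occurred in 2 of 17 core windows, 7 of 21 regulatory particle windows and 3 of 4 activator windows. Of the 10 genes that fell and had a window, 6 held it, and of the 24 tested genes that did not pass and had one, 6 held it. Over all genes with a window 16.1% held it in at least 1. The genes that fell had more windows each, 14 for 10 genes, than the genes that did not pass, 26 for 24, so they had more sequence in which to match. Counted by window, 6 of 14, 42.9%, held the core in the genes that fell and 6 of 26, 23.1%, in the others. The difference between these sets was not tested. CCAAT on either strand occurred in 18 of the 42 member windows, 42.9%, and in 34.6% of all windows. Of the genes that fell, 5 of 10 held CCAAT, and of those that did not pass, 12 of 24. The 2 motifs share no position in these matches. Such matches are a description of the letters, not of binding.

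The stretches of 29 bases around the match in the 6 genes that fell are shown to set their spacer and flanks side by side, each written 5′ to 3′ on the strand where the element reads forward, with the match in capitals. The match in PSMC4 starts 28 bases after the transcript start and the others 86 to 165 bases before it. Where a gene has several windows, as PSMA4 has, the distance is to the start of the window with the match. The other windows of PSMA4 hold no match.
PSMA4, chr15:78540650-78540678, plus strand: gtgggcacgaTGACTCTGCaccgcctcct
PSMB3, chr17:38752627-38752655, plus strand: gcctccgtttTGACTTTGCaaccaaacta
PSMC4, chr19:39971182-39971210, minus strand: tcctccatagTGACCAAGCcggcctctgt
PSMD5, chr9:120843038-120843066, minus strand: tggctacagtTGACACGGCcctaacggag
PSMD12, chr17:67366724-67366752, minus strand: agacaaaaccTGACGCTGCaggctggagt
PSME1, chr14:24136098-24136126, plus strand: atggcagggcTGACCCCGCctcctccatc

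Genes that did not pass carry the same core. PSMD3, whose log2 fold change was -0.02, holds a match 37 bases before the start and another 34 bases after it, of which the first is shown. PSMC5 also has several windows, and its match lies 57 bases before the start of the only window that holds one. PSME2 has its match 175 bases before the start.
PSMD3, chr17:39980760-39980788, plus strand: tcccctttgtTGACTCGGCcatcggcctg
PSMC5, chr17:63827654-63827682, minus strand: agggcggcgcTGACACAGCagatccggtc
PSME2, chr14:24146767-24146795, minus strand: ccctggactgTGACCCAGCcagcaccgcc

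The whole 250 bases before the start are shown for PSMB3, which fell and holds both motifs, and for PSMD3, which did not pass and also holds both. Capitals mark TGACNNNGC and CCAAT or its reverse, ATTGG. PSMB3 has CCAAT 55 and 13 bases before the start, and PSMD3 has ATTGG 217 bases before it.
PSMB3, chr17:38752491-38752740, plus strand: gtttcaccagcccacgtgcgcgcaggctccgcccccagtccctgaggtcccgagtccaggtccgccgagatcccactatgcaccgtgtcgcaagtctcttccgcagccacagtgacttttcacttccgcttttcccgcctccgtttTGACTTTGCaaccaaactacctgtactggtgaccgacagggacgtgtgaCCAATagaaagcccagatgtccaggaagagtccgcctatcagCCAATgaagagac
PSMD3, chr17:39980557-39980806, plus strand: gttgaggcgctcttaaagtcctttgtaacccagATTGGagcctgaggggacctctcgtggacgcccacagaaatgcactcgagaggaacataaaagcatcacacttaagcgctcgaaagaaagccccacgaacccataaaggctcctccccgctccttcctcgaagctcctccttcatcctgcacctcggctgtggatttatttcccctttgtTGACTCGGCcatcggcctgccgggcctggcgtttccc

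Levels of the subunit genes differed far more between members than between groups. In control cells the deposited FPKM of the tested members ran from 1.197 ± 0.19 for PSMC1 and 2.48 ± 0.11 for PSMA2 to 153.3 ± 7.29 for PSMB3 and 160.2 ± 5.40 for PSMA7 (SD, n = 3 each), a 134-fold range. Wide ranges also lay within single rings. Among tested genes, the ring of ATPases ran from 1.197 to 147.2 FPKM and the alpha ring from 2.48 to 160.2. The beta ring ran from 6.22 to 153.3 and the lid from 9.98 to 93.8, while the other base subunits ran from 43.2 to 76.4. In the order of FPKM, PSMA7, PSMB3, PSMC4 (147.2 ± 6.07) and PSMB5 (139.8 ± 5.03) had overlapping ranges with their neighbours, while PSMB6, the next at 112.6 ± 4.35, lay below them. The FPKM divide by the length of all exons of the gene, which was 1.16 to 6.33 times the length of the principal transcript in GENCODE release 29. Across the 39 tested members, control FPKM and that exonic length had a Spearman rho of -0.71, a description over genes that share the 6 libraries and in which length is part of both measures.

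Scaled by the length of the principal transcript instead, the order changed. The counts were still those of all exons of the gene, so reads from exons outside that transcript raise these values. PSMA7 stayed highest at 282 in these FPKM units, followed by PSME3 at 262, which had only 50.7 FPKM. PSMA6 had 91.1 beside 14.4 FPKM, and PSMD6 had 63.2 beside 9.98 FPKM. In these 3 genes the principal transcript is short, at 19.4% of the exonic length for PSME3, 15.8% for PSMA6 and 15.8% for PSMD6. Their values on this scale are therefore upper limits. The 4 lowest were PSMC1 at 1.65, PSMB10 at 8.30, PSMA2 at 8.83 and PSMD9 at 10.9.

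**Figure D4:**
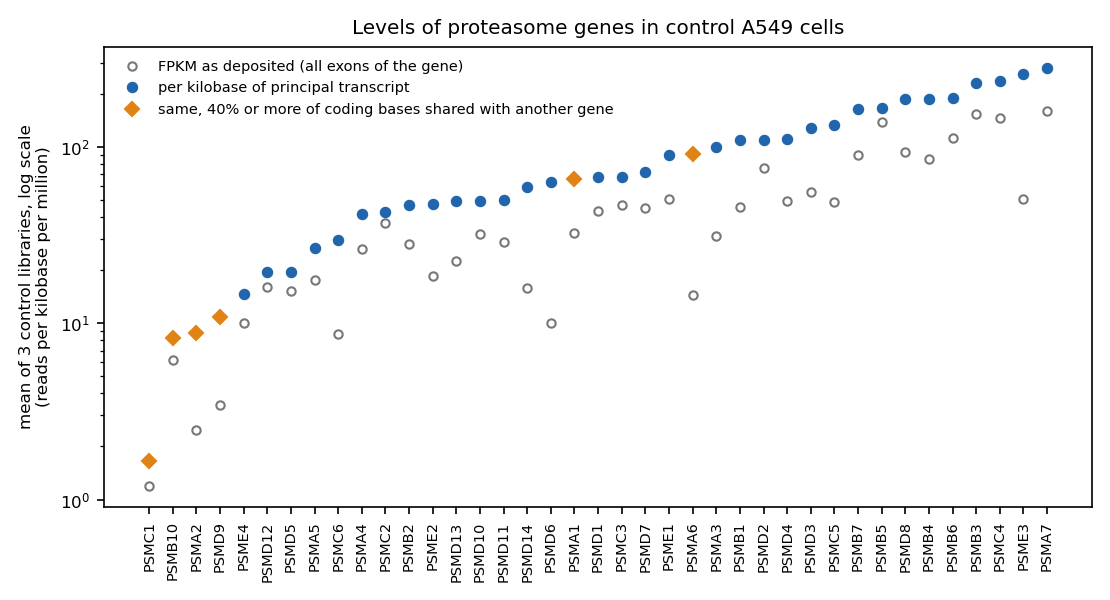
Mean level of each detected and tested proteasome gene in the 3 control libraries, on a log axis, as deposited FPKM (open circles) and per kilobase of the principal transcript (filled marks), ordered by the second. Orange diamonds mark the 6 genes with 40% or more of their coding bases shared with exons of another gene, and 4 of these are the lowest of all.

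Shared sequence accompanied the lowest values. In GENCODE release 29, 6 of the 41 members share 40% or more of their coding bases with exons of another gene, and 31 share none. PSMA2 shares 100% with AC010132.3, a gene on the same strand that had 0 to 6 counts per library. PSMC1 shares 47.7% with NRDE2, a gene on the opposite strand that had 401 to 665 counts per library. PSMC1 also has 13 pseudogenes in the table, and these had 187, 248 and 170 counts in control and 236, 219 and 154 in siGSE1 libraries, where PSMC1 itself had 152, 175 and 89 and then 103, 137 and 111. For PSMA6, the next in pseudogene counts, the share was 1.41% of its own. PSMD9 shares 68.3% of its coding bases with a gene on the same strand that had 0 to 2 counts per library. PSMB10 shares 60.0% with AC040162.1, also on the same strand. That gene had 77 to 119 counts per library, where PSMB10 had 147 to 221. PSMA1 and PSMA6 share 91.0% and 89.7% and yet had 66.1 and 91.1 on the same scale, so sharing did not go with a low value in every case. Reads of such genes could be split or set aside in counting, and no source used here gives the strand setting, so the levels and changes of these 6 genes are uncertain. The part of sharing in the low values was not tested. Among the other 33 tested members the range was 19.1-fold, from 14.8 for PSME4 to 282 for PSMA7. In deposited FPKM the range of these members was 18.4-fold.

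Genes that assemble, feed and control the proteasome were described by list. Among 11 genes of other subunits and bound proteins, 4 fell, 0 rose and 7 did not pass, beside 9.02% called lower over all genes. Their median log2 fold change was -0.17. UBE3C, a ubiquitin ligase that extends chains on the proteasome, had 14.3, 14.6 and 14.5 FPKM in control replicates 1, 2 and 3 and 12.7, 11.4 and 11.5 in the siGSE1 replicates (log2 ratio -0.31 ± 0.06 SE, edgeR adjusted p 0.00106). The deubiquitinase gene USP14 had 13.9, 14.4 and 12.9 FPKM in control and 11.3, 11.8 and 11.2 in siGSE1 libraries (log2 ratio -0.30 ± 0.06 SE, adjusted p 0.00282). UCHL5, the other deubiquitinase that docks on the base, had 6.66, 6.32 and 6.68 FPKM in control and 5.59, 5.53 and 5.53 in siGSE1 libraries (log2 ratio -0.26 ± 0.07 SE, adjusted p 0.00970). In these 3 genes no siGSE1 library reached a control library. They were called on these same libraries, so this order is not a separate check. ZFAND2A, known as an arsenite-inducible partner and named after its values were seen, was the fourth, at -0.28. ADRM1, the receptor that holds UCHL5, had -0.09 and the small lid subunit SEM1 -0.06, and neither passed.

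None of 5 core assembly genes passed. At an unadjusted p under 0.05, 2 were lower and 0 higher, beside 15.5% of all genes lower, and DESeq2 called 0. POMP, the maturation factor of the core, had 34.2 ± 1.71 and 35.5 ± 1.84 FPKM in control and siGSE1 cells, and PSMG3, an early chaperone of the alpha ring, 23.9 ± 2.63 and 20.7 ± 0.97 (SD, n = 3 each; adjusted p = 0.829 and 0.0547 by edgeR).

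Among 8 genes around NRF1, 2 fell, 1 rose and 5 did not pass, beside 9.02% called lower and 10.9% higher over all genes. NFE2L1 itself, the regulator known to induce subunit genes, had 50.5, 51.9 and 53.0 FPKM in control and 52.3, 51.3 and 50.9 in siGSE1 libraries, a log2 fold change of -0.03 with an interval of -0.13 to 0.07. DDI2, the protease that cuts NRF1 into its active form, rose from 2.45, 2.45 and 2.46 FPKM in control to 3.35, 3.35 and 3.04 in siGSE1 libraries (log2 ratio 0.38 ± 0.07 SE, edgeR adjusted p 0.00139). NFE2L2, the gene of NRF2, fell from 19.8, 20.4 and 21.3 FPKM to 15.7, 16.1 and 15.5 (log2 ratio -0.40 ± 0.05 SE, adjusted p 6.4e-05). MAFG, a small MAF protein that pairs with NRF1 and NRF2, fell from 32.7, 38.7 and 37.2 FPKM to 29.7, 29.8 and 28.9 (log2 ratio -0.32 ± 0.06 SE, adjusted p 0.00134). DDI2, NFE2L2 and MAFG kept their calls in all 17 alternatives.

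Of 6 genes for ubiquitin and its activating enzymes, 1 fell, 0 rose and 5 did not pass, beside 9.02% called lower over all genes. RPS27A, which encodes ubiquitin fused to a ribosomal protein, had 148.2, 145.2 and 133.2 FPKM in control and 129.5, 128.7 and 127.3 in siGSE1 libraries (log2 fold change -0.17, SE 0.05, edgeR adjusted p = 0.0343). Of 6 genes of the unfoldase p97 and its adaptors, 1 fell, 0 rose and 5 did not pass, beside the same 9.02%. VCP, which encodes p97 itself, had 158.1, 152.9 and 148.6 FPKM in control and 134.8, 131.9 and 134.4 in siGSE1 libraries (log2 fold change -0.22, SE 0.05, adjusted p = 0.00453). VCP kept its call in all 17 alternatives and RPS27A in 10.

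Of 4 genes of shuttle factors described here, which carry ubiquitinated proteins to the regulatory particle, 2 fell, 0 rose and 2 did not pass. Over all genes, 9.02% were called lower. UBQLN1 fell from 37.1, 37.0 and 38.8 FPKM in control to 32.7, 33.9 and 31.9 in siGSE1 libraries (log2 ratio -0.22 ± 0.05 SE, edgeR adjusted p 0.00511), and it kept its call in all 17 alternatives. UBQLN4 had a log2 fold change of -0.16 (adjusted p = 0.0493 by edgeR) and kept its call in 5 of them.

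**Figure D5:**
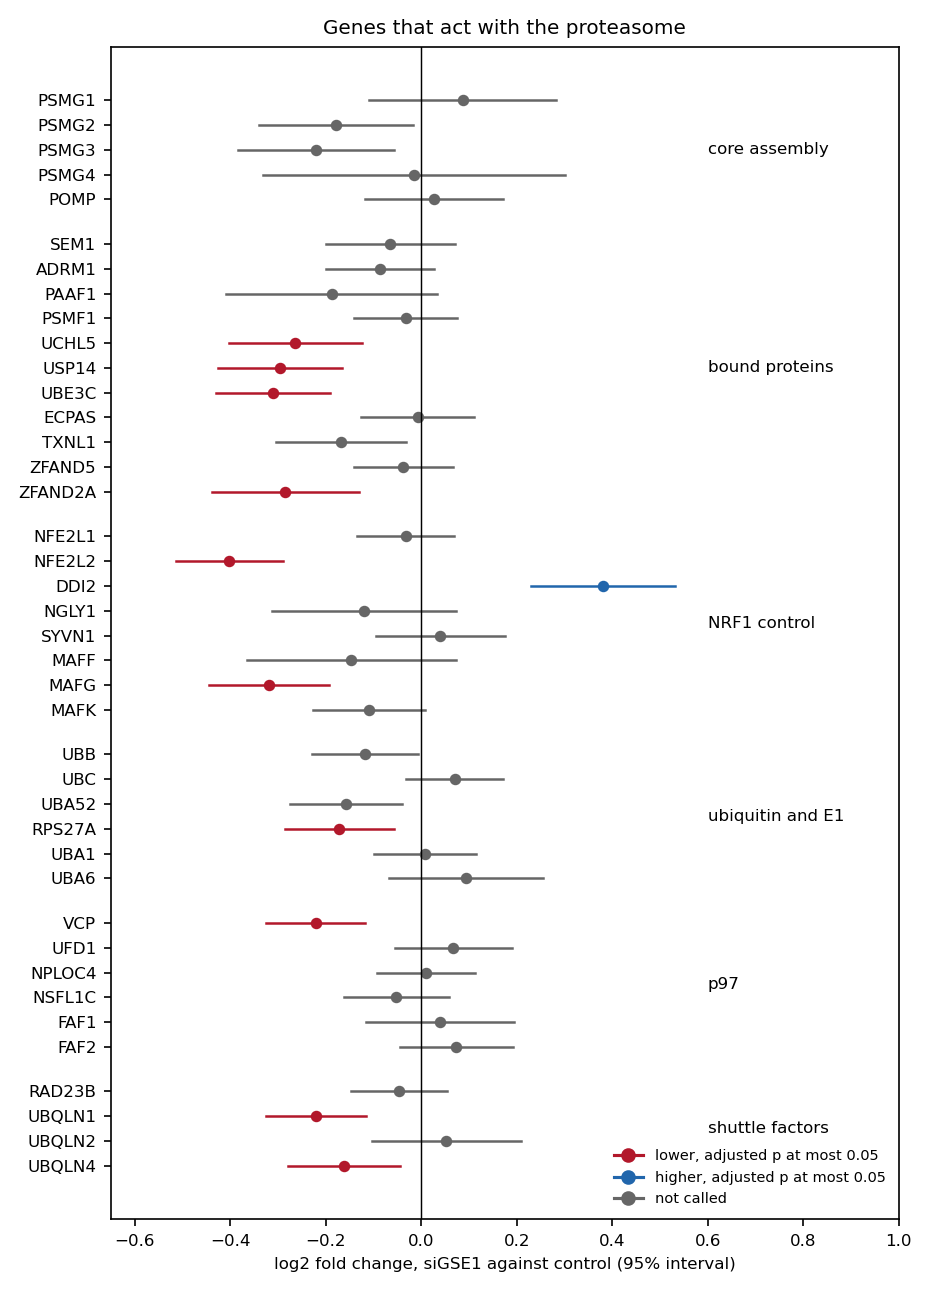
Log2 fold change of siGSE1 against control (horizontal axis) with the 95% interval for tested genes that assemble, bind, feed or control the proteasome. Red genes were called lower, the blue gene higher, and grey genes did not pass. DDI2 is the blue gene, and NFE2L2 lies farthest to the left.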

How the data were processed

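The authors deposited 1 table with whole-number read counts per Ensembl gene and FPKM for each library. The tools named per the submitters' processing notes include HISAT2, HTSeq, StringTie 1.3.3b and edgeR, on hg38 and with no roles given, whereas the series text names STAR, RPKM and DESeq2. The deposited FPKM equal counts scaled by exonic length and library total in 100% of values (tolerance 0.0051). Coordinates are those of the table in hg38, and 76.9% of the 58394 genes also in GENCODE release 29 had identical ones.

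Counts were tested with edgeR 4.0.16 (filterByExpr, min.count 10, min.total.count 15; TMM scaling; group only). Standard errors are the absolute log2 fold change over the square root of F. The libraries held 14475992 to 20755506 counts, and the biological coefficient of variation was 7.00%. Alternatives used DESeq2 1.42.0 and limma 3.58.1 on log2(FPKM + 1), log2(FPKM + 0.1) and log2(TPM + 1). The test was also run on counts simulated as independent libraries. Such a run cannot show whether the spread between the real libraries is technical. All members were described. From each other list up to 3 called genes with the smallest adjusted p, or else the 2 most abundant, were named. Members and lists were chosen with earlier results of these data known. The comparisons of gene models and pseudogenes were added, and NFE2L1, ADRM1, SEM1 and ZFAND2A were named, after their values were seen. One gene of the shuttle factor list is not reported here.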

Additional observations from a re-analysis of the deposited data

How the results depend on the processing

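No called result changed sign under the 17 alternatives, and GSE1 stayed lower with a log2 fold change of -0.85 to -1.06. The medians of both particles stayed below 0 in all of them. The number of core particle genes called lower, 6, became 3 with length and GC trends removed, 3 without TMM factors, 3 with no low-count filter, 2 under limma on log2(FPKM + 1), 2 under limma on log2(FPKM + 0.1) and 0 under limma on log2(TPM + 1). Under log2(TPM + 1) 2 regulatory particle genes were lower, the medians were -0.066 for the core and -0.062 for the regulatory particle, and the median of all genes was 0.056. Genes called lower over the whole table went from 1437 to 909 with a pseudocount of 0.1, 887 with 1 and 702 under log2(TPM + 1). On that last scale 1884 genes were called higher, beside 1730. With each library left out in turn, the core count ran from 0 to 6 and the regulatory particle count from 2 to 6. Over all genes, 1049 to 1914 rose and 814 to 1648 fell in these fits. Same-numbered libraries did not deviate together over all genes, with correlations of 0.020, -0.0185 and 0.0024. These values cannot show whether same-numbered libraries were prepared together. With the replicate block, 5 core and 4 regulatory particle genes were lower, PSMB3 lost its call, and 1715 genes rose and 1382 fell over the whole table. Of the members called, PSMB3 lay nearest the threshold, with an edgeR adjusted p of 0.0470.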
